A study of Mus musculus with 27 samples.

Results

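The transcripts of the D-type cyclins, their kinases and their inhibitors were followed in an immortalized mouse embryonic fibroblast line (iMEF) in which the histone methyltransferase gene Setdb1 can be deleted. The set held 9 genes chosen by name: the cyclins Ccnd1, Ccnd2 and Ccnd3, the kinases Cdk4 and Cdk6, and the inhibitors Cdkn1b, Cdkn2a, Cdkn2b and Cdkn2c. They are 9 of the 19592 genes with a value in the total RNA experiment, 21510 in the siRNA experiment and 21668 in the inhibitor experiment. In the total RNA experiment 7 of the 9 had a locus of their own in every library, while Cdkn2a and Cdkn2b were merged in 3 libraries. All values are FPKM, fragment counts scaled to transcript length and to the number of mapped fragments, so levels of different genes can be set side by side within a library.

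D-type cyclins are the regulatory subunits of Cdk4 and Cdk6, and the active complexes phosphorylate the retinoblastoma protein so that E2F factors can drive entry into S phase. Their levels follow growth signals, and cyclin D1 in fibroblasts is a well-known target of the Ras-MEK-ERK pathway. The Ink4 proteins encoded by Cdkn2a (p16), Cdkn2b (p15) and Cdkn2c (p18) bind Cdk4 and Cdk6, whereas p27, encoded by Cdkn1b, inhibits Cdk2 complexes and also binds cyclin D complexes. Cdkn2a encodes a further protein, p19Arf, from the same locus, and its gene-level FPKM does not separate the products.

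All 27 libraries came from Setdb1 conditional knockout iMEFs, so every control also carried the conditional Setdb1 allele, and per the study's methods the cells were 1 recloned line. Addition of 4-hydroxytamoxifen (4OHT) induced the deletion. In the total RNA experiment (ribosomal RNA removed, 3 libraries a group) untreated cells were compared with cells at day 5, after 4 days of 4OHT, and with long-term KO cells cultured for more than 2 weeks after 4OHT. In the siRNA experiment (2 libraries a group, day 6) cells received control siRNA (siCtrl) or siRNA against the DNA methyltransferase gene Dnmt1 (siDnmt1), each without or with 4OHT from day 0. In the inhibitor experiment (2 libraries a group) cells were untreated, treated for 24 h with 150 nM of the histone deacetylase inhibitor TSA or 1 µM of the MEK inhibitor PD0325901, harvested at day 6 of 4OHT, or given 4OHT with PD0325901 for the last 24 h. The labels do not say that libraries of a group were separate cultures, so the p-values measure the spread between libraries, which may be technical.

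Depth, estimated from the width of the authors' interval around the FPKM of single-exon genes, was 34.7 to 43.4 M (mega) fragments in the total RNA libraries, 15.1 to 17.2 M fragments in the siRNA libraries and 12.01 to 13.9 M fragments in the inhibitor libraries. In the total RNA experiment Setdb1 transcript was at 5.16 to 5.95 FPKM in untreated libraries and 4.16 to 6.52 FPKM at day 5. In long-term KO libraries it was at 6.96 to 7.32 FPKM, which passed the test as higher than day 5 (log2 0.56). Neither group passed against untreated cells. Over the siRNA libraries Setdb1 was at 5.00 to 7.58 FPKM with no call between groups. In the inhibitor experiment it was at 8.76 and 10.1 FPKM in untreated, 9.56 and 9.001 FPKM in TSA and 5.34 and 5.56 FPKM in PD0325901 libraries, while it was listed at 0 in both 4OHT + PD0325901 libraries. The 4OHT day 6 libraries disagreed on it, with replicate 1 listed at 0 and replicate 2 at 5.30 FPKM. No Setdb1 difference between groups of that experiment passed the test, and since the sources used here do not say which part of the gene is removed, whole-gene FPKM does not check the label. The 5 interferon-response genes Irf7, Usp18, Rsad2, Isg15 and Ifit1 all passed the test as higher at day 5, in long-term KO cells and at day 6 of the inhibitor experiment. The library labelled 4OHT + siCtrl replicate 2 stood apart. These 5 genes summed to 226 FPKM there, against 1736 FPKM in replicate 1 and 139.6 to 146 FPKM in siCtrl. The main fold changes of members that rest on it are given with and without it, while marker counts and group means include it. The library labelled PD0325901 replicate 2 carries a header line with another title; the interferon genes summed to 29.5 and 29.97 FPKM in the PD0325901 libraries and to 1942 and 1999.6 FPKM in the 4OHT + PD0325901 libraries. Dnmt1 fell from 80.5 and 73.4 FPKM in siCtrl to 12.2 and 10.6 FPKM in siDnmt1 libraries. Of the fibroblast markers, Vim was at 468 FPKM or more and Fn1 at 94.4 FPKM or more in every library. Other fibroblast markers moved with the treatments and are given beside the members. Of the markers of other cells, the epithelial gene Krt5 was at most 0.0615 FPKM and the haematopoietic gene Ptprc at most 0.131 FPKM. The epithelial gene Epcam reached 29.2 FPKM and the haematopoietic gene Cd68 66.9 FPKM, both with TSA. In total RNA the pluripotency gene Nanog rose at day 5 (log2 0.51) and in long-term KO cells (log2 1.81, mean 1.17 FPKM). Pou5f1, the other pluripotency gene on the list, was at most 0.0603 FPKM in total RNA and too low to be tested. Epcam fell in long-term KO cells (log2 -1.96), and all of these changes passed the test. Their part in the members' values was not tested. In bulk RNA, fewer cells of a type and less RNA per cell cannot be told apart.

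In the total RNA experiment, 5 of the 7 members tested passed at day 5 against untreated cells, none of them by 2-fold (adjusted p under 0.05 in limma fitted across all genes, called for 37.3% of all genes tested, 18.9% as higher and 18.4% as lower, and for 3.42% with 2-fold). Cyclin D1 rose, while cyclin D2, both kinases and the inhibitor Cdkn2c fell. In long-term KO cells 7 of 9 members passed against untreated cells and 5 of them by 2-fold (67.8% of all genes passed, 38.1% as higher and 29.7% as lower, and 14.2% with 2-fold): Ccnd1, Ccnd2 and Cdk6 fell, and Cdkn1b and Cdkn2c rose. The median log2 fold change of the members was -0.34 at day 5 and -0.16 in long-term KO cells, beside 0.0012 and 0.067 over all genes tested.

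**Figure D1:**
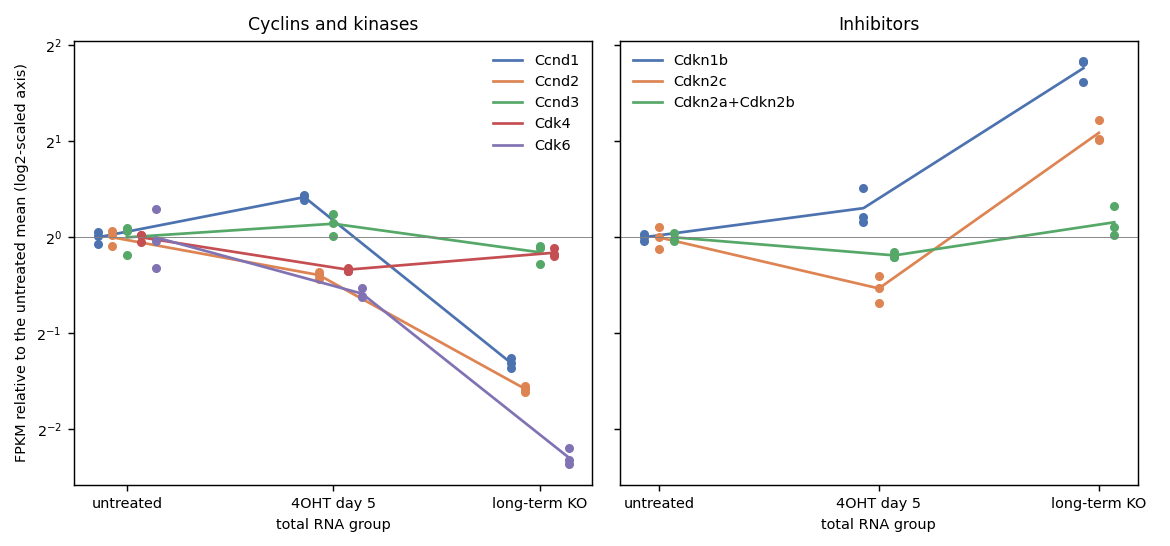
Total RNA libraries, FPKM divided by the mean of the 3 untreated libraries (log2-scaled vertical axis) for untreated, 4OHT day 5 and long-term KO groups, with 1 point per library and lines through the group means. Ccnd1 lies above its untreated level at day 5 and below it in long-term KO cells, Cdkn2c the other way round, and Cdkn1b and Cdk6 show the widest long-term distances.

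Cyclin D1, the partner through which growth signals act on Cdk4 and Cdk6, was at 33.7, 36.5 and 35.5 FPKM in the untreated libraries, at 47.5, 47.8 and 46.0 FPKM at day 5 and at 14.3, 13.8 and 14.7 FPKM in long-term KO cells. The groups did not overlap, with day 5 highest and long-term KO lowest. The rise at day 5 was 0.42 ± 0.041 on the log2 scale (SE, n = 3 against 3, limma adjusted p = 0.00018), and the long-term level was lower by 1.30 (log2 fold change -1.30 ± 0.041, limma adjusted p = 1.06e-07). Set directly against day 5, the long-term libraries were at a log2 fold change of -1.72 ± 0.041 (limma adjusted p = 3.53e-08).

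Cyclin D2, a close relative of cyclin D1, was at 33.0, 36.7 and 35.6 FPKM in untreated libraries, 27.4, 26.0 and 26.8 FPKM at day 5 and 11.5, 11.7 and 12.03 FPKM in long-term KO cells. It was lower in all 3 libraries at each later time, with log2 fold changes of -0.39 ± 0.045 at day 5 and -1.57 ± 0.045 in the long term (limma adjusted p = 0.00043 and 6.81e-08). Cyclin D3 stayed within 24.8 to 35.5 FPKM over all 9 libraries. The untreated libraries (26.4, 31.4 and 32.1 FPKM) overlapped both later groups, while day 5 (33.3, 35.5 and 30.4 FPKM) lay above long-term KO cells (27.8, 24.8 and 28.1 FPKM). Against untreated cells Ccnd3 passed at neither time, although its long-term value passed without untreated replicate 1 (-0.24, adjusted p = 0.036). It passed in long-term KO cells against day 5 (log2 fold change -0.30 ± 0.093, limma adjusted p = 0.023). That call was lost without day 5 replicate 1 (-0.29), without day 5 replicate 2 (-0.24) and without long-term KO replicate 2 (-0.24).

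Cdk6, the less abundant of the kinases, was at 27.4, 42.0 and 33.5 FPKM in untreated libraries, 22.3, 22.5 and 23.7 FPKM at day 5 and 6.66, 6.86 and 7.47 FPKM in long-term KO cells. No groups overlapped, and the untreated libraries were spread most. The log2 fold change was -0.56 ± 0.14 at day 5 and -2.26 ± 0.14 in long-term KO cells (limma adjusted p = 0.014 and 3.17e-06), the largest size among the members in that experiment. Cdk4 was more abundant in every library, with 283 to 299 FPKM in untreated libraries, 231 to 235 FPKM at day 5 and 256 to 272 FPKM in long-term KO cells. It fell by 0.34 at day 5 on the log2 scale and by 0.16 in the long term (limma adjusted p = 0.00024 and 0.0040), but after quantile normalization the latter was -0.04 and did not pass.

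Cdkn1b, whose product p27 restrains Cdk2, was at 13.5, 14.3 and 14.0 FPKM in untreated libraries, 19.9, 16.2 and 15.5 FPKM at day 5 and 49.4, 49.9 and 42.7 FPKM in long-term KO cells. The day 5 libraries all lay above the untreated ones without passing the test (log2 fold change 0.29 ± 0.099, limma adjusted p = 0.051), although it passed without day 5 replicate 3 (0.36, adjusted p = 0.037) and with a filter of 5 FPKM (adjusted p = 0.049). The long-term rise was 3.39-fold (log2 fold change 1.75 ± 0.099, limma adjusted p = 2.18e-06). Cdkn2c, encoding p18, moved in opposite directions at the later times: 25.2, 27.4 and 29.3 FPKM in untreated libraries became 18.999, 20.7 and 16.96 FPKM at day 5 and 63.5, 55.1 and 55.6 FPKM in long-term KO cells. Its groups did not overlap, and the log2 fold changes were -0.53 ± 0.092 and 1.09 ± 0.092 (limma adjusted p = 0.0032 and 1.99e-05). The long-term level exceeded the day 5 level by 1.62 on the log2 scale (limma adjusted p = 2.41e-06).

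Cdkn2a and Cdkn2b are neighbours, and the assembly joined them into 1 locus in untreated replicate 3 and day 5 replicates 2 and 3, so neither could be tested on its own at day 5. Their summed FPKM, or that of the joined locus, was 363, 384 and 368 in untreated libraries, 333, 323 and 322 at day 5 and 465, 399.9 and 378 in long-term KO cells. This way of handling the pair was chosen after the values were seen. The sum was lower in all 3 day 5 libraries without passing the test (log2 fold change -0.19 ± 0.071, limma adjusted p = 0.074), and its value became -0.22 after median-ratio scaling, which passed. It was higher in long-term KO cells than at day 5 (0.34 ± 0.071, limma adjusted p = 0.0034). Where measured alone, Cdkn2b, the gene of p15, was at 52.4 and 52.2 FPKM in 2 untreated libraries and 39.0, 37.6 and 31.3 FPKM in long-term KO cells, a fall that passed (log2 fold change -0.55 ± 0.11, limma adjusted p = 0.0086). Cdkn2a was at 311 and 331 FPKM in the same untreated libraries and 347 to 426 FPKM in long-term KO cells (log2 fold change 0.23 ± 0.10, limma adjusted p = 0.11), a rise that passed after quantile normalization (0.34, adjusted p = 0.011).

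Long-term KO cells against day 5 gave 7 of 7 members past the test (66.4% of all genes passed, 36% as higher and 30.4% as lower), 3 higher and 4 lower, and 5 by 2-fold (12.8% of all genes). Other genes of the G1/S machinery were taken from a list of 28, of which 21 were measured well enough. In long-term KO cells 7 of these were higher, 5 lower and 9 did not pass, with a median log2 fold change of 0.014. Myc, a transcription factor of growth, had the lowest adjusted p of that list and fell (log2 fold change -2.42, limma adjusted p = 6.24e-08), with Hsp90ab1, a chaperone of Cdk4, and Ccne1, the gene of cyclin E1, also lower (-0.48 and -0.46). At day 5 the same list had 3 higher and 4 lower, and Cdkn1a, encoding p21, rose (0.86). Of 17 E2F target genes tested, 6 were higher and 2 lower in long-term KO cells (median 0.046), led by the replication licensing genes Mcm4 (0.68) and Mcm2 (0.50) and by Ezh2 (0.50). All 8 genes of an ERK target list were lower in long-term KO cells (median log2 fold change -1.66), among them Etv4 (-3.39), Etv5 (-2.21) and Dusp6 (-1.58). At day 5 the list had 3 lower and none higher. Markers of fibroblasts moved in both directions. At day 5, 4 of the 7 tested fell and 1 rose: the receptor gene Pdgfra fell from 18.2 to 18.6 FPKM in untreated to 5.98 to 6.78 FPKM (log2 fold change -1.52), and the collagen genes Col3a1 (-1.47) and Col1a2 (-0.53) fell. In long-term KO cells Pdgfra was lower still, at 2.40 to 2.52 FPKM (-2.85, limma adjusted p = 8.07e-09), while the related receptor gene Pdgfrb rose from 4.76 to 5.13 FPKM to 34.9 to 35.7 FPKM (2.80, limma adjusted p = 8.28e-09) and Col1a2 rose (0.47). The part of these markers in the members' values was not tested. The summed level of the 7 fibroblast markers measured was 1685 to 1699 FPKM in untreated, 1377 to 1462 FPKM at day 5 and 1769 to 1835 FPKM in long-term KO libraries.

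The stretch just upstream of the start is shown for the members with the widest long-term distances, Cdk6 and Cdkn1b, and for Cdkn2b, which fell after 4OHT. Entries of the RefSeq promoter table (GRCm38.p6) matched 7 of the 9 members; Ccnd1 and Ccnd2 were not among them. Each sequence was located in mm9 by an exact match and is 250 bases long, 5′ to 3′ on the strand of the gene, and lies outside any annotated exon. Capitals mark matches on either strand to the E-box CACGTG, the cyclic AMP response element TGACGTCA, the AP-1 site TGACTCA, the GC box GGGCGG and the E2F sites TTTCGCGC and TTTGGCGC, and no matches overlapped. Cdk6 is at chr5:3343643-3343892 (plus strand), Cdkn1b at chr6:134870169-134870418 (plus strand) and Cdkn2b at chr4:88956942-88957191 (minus strand).
Cdk6: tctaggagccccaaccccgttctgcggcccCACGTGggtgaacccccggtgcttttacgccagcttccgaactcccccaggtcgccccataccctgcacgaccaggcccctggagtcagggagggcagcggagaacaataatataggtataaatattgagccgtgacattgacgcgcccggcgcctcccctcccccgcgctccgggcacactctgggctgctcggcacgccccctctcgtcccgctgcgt
Cdkn1b: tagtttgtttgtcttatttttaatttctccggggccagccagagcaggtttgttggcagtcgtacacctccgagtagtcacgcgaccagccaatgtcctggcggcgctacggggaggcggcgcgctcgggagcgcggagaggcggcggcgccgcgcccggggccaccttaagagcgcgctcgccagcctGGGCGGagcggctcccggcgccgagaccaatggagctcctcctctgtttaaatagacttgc
Cdkn2b: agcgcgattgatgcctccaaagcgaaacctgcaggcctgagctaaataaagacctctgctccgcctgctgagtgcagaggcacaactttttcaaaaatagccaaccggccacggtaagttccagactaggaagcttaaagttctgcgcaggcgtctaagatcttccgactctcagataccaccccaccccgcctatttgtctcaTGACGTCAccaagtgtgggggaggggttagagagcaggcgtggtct
Cdk6 held 1 E-box, found in 6.02% of the 32851 upstream stretches of the table, Cdkn1b held 1 GC box, found in 32.7%, and Cdkn2b held 1 cyclic AMP response element, found in 1.55%. The stretch upstream of Cdk4, which overlaps an annotated exon and is not printed, held 4 E-boxes and 1 GC box. No AP-1 or E2F letters were found in any of the 10 member stretches, and the matches are a description of letters.

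The genes themselves lie on mm9 at chr7:152115836-152125830 (Ccnd1), chr6:127075727-127101066 (Ccnd2), chr17:47642000-47736637 (Ccnd3), chr10:126500659-126504338 (Cdk4), chr5:3343893-3531005 (Cdk6), chr6:134870419-134875543 (Cdkn1b), chr4:88920377-88940523 (Cdkn2a), chr4:88952198-88956941 (Cdkn2b) and chr4:109333481-109339361 (Cdkn2c), as the deposited loci give them. Values are summed over each gene.

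**Figure D2:**
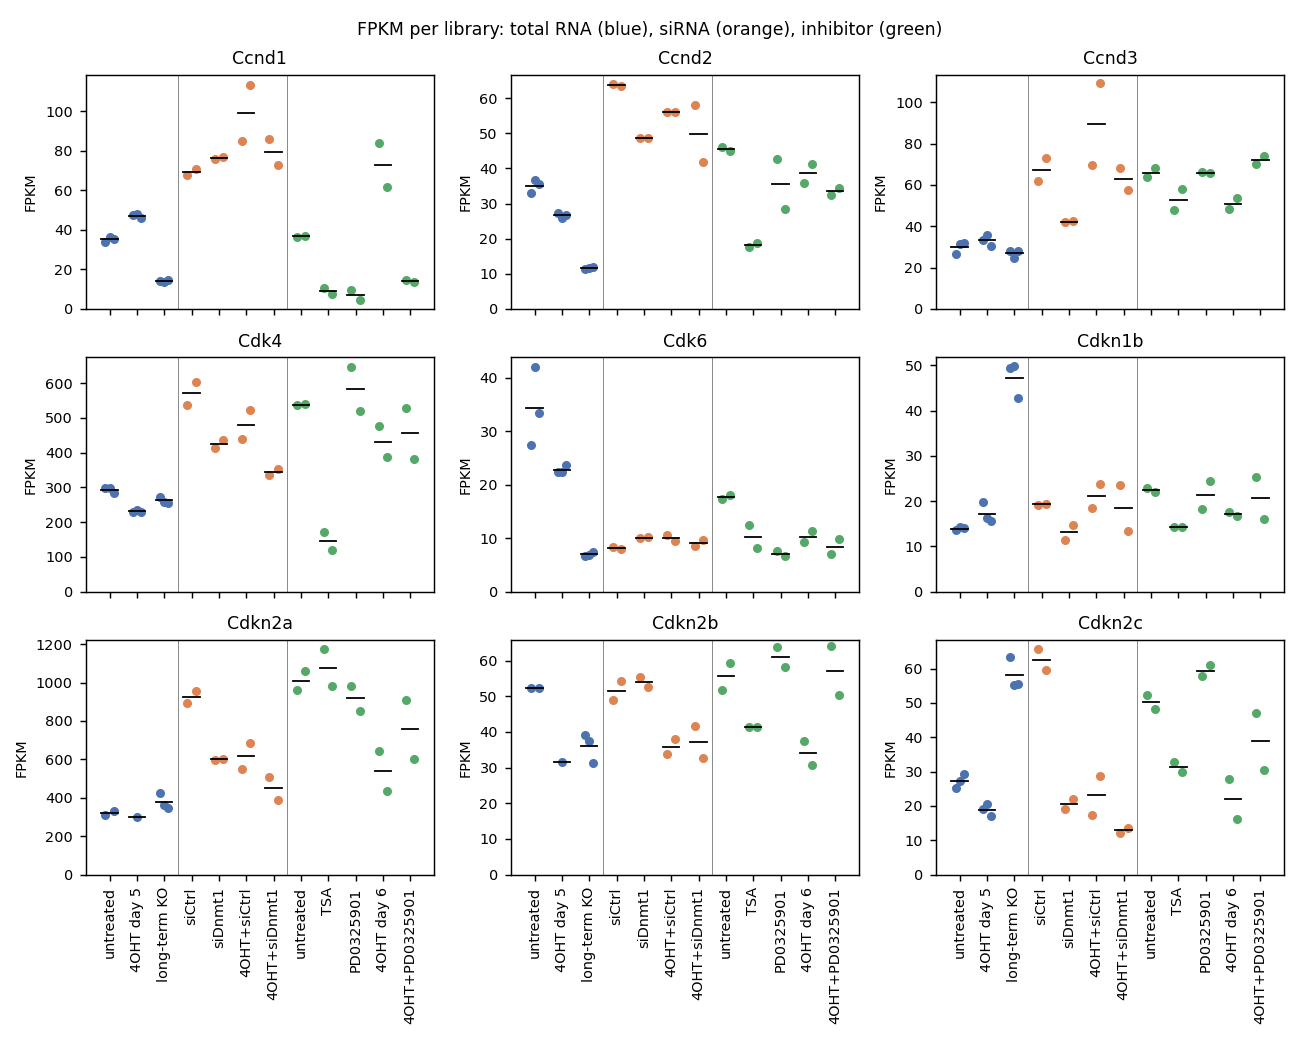
FPKM of the 9 genes in each library (points) and group means (black lines), on linear axes from 0, for the total RNA (blue), siRNA (orange) and inhibitor (green) experiments. Ccnd1 is lowest under TSA and PD0325901, Cdkn1b is highest in long-term KO cells, and Cdkn2c is low in the siDnmt1 and 4OHT groups of the siRNA experiment; empty places for Cdkn2a and Cdkn2b are libraries with a joined locus.

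The siRNA experiment asked what loss of Dnmt1 adds to loss of Setdb1. In siDnmt1 against siCtrl 1 of 9 members passed, Cdkn2c (7.92% of all genes passed, 4.82% as lower and 4.8% with 2-fold). It was also the 1 member to pass in 4OHT + siCtrl against siCtrl (13.7% of all genes, 6.51% as lower and 6.08% with 2-fold). These counts were near the shares over all genes, and 5 and 4 members had an unadjusted limma p under 0.05. The p18 gene was at 65.6 and 59.7 FPKM with siCtrl, 19.02 and 21.9 FPKM with siDnmt1, 17.4 and 28.8 FPKM with 4OHT + siCtrl and 12.2 and 13.6 FPKM with 4OHT + siDnmt1. The siCtrl libraries lay above all others and the libraries with both treatments below all others. The log2 fold change was -1.61 ± 0.24 for siDnmt1 (limma adjusted p = 0.015) and -1.48 ± 0.24 for 4OHT (limma adjusted p = 0.016). The siDnmt1 call was lost when any 1 of its 4 libraries was left out, with values between -1.71 and -1.51 and adjusted p from 0.099 to 0.12. The 4OHT call was lost without siCtrl replicate 1 (-1.41) or siCtrl replicate 2 (-1.55), and without the library that stood apart, 4OHT + siCtrl replicate 2, it was -1.84 (adjusted p = 0.0019). Fitted on its 4 libraries alone it was also lost (adjusted p = 0.11).

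In the comparison of siDnmt1 with siCtrl, Cdk4 and Cdkn2a did not pass (limma adjusted p = 0.076 and 0.071): Cdk4 was at 538 and 603 FPKM with siCtrl against 415 and 435 FPKM with siDnmt1, and Cdkn2a at 894 and 955 against 597 and 601 FPKM. The siCtrl and siDnmt1 libraries did not overlap for any member except Cdkn2b, and the share of all genes without overlap was not counted. Fitted on these 4 libraries alone, 7 members passed in place of 1, so the count depends on the libraries sharing the estimate of spread. The share of all genes passing in that fit was not counted.

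Cyclin D1 was at 67.9 and 70.7 FPKM with siCtrl and 85.1 and 113 FPKM with 4OHT + siCtrl, which did not pass (log2 fold change 0.50 ± 0.15, limma adjusted p = 0.078). Without 4OHT + siCtrl replicate 1 it did (0.71, adjusted p = 0.012), and without replicate 2, the library that stood apart, it was 0.30 (adjusted p = 0.11). Cdkn2b was at 49.0 and 54.3 FPKM with siCtrl and 33.7 and 38.0 FPKM with 4OHT + siCtrl (log2 fold change -0.53 ± 0.14, limma adjusted p = 0.055). Without that library the log2 fold changes were -1.84 for Cdkn2c, -0.75 for Cdkn2a, -0.61 for Cdkn2b, -0.37 for Cdk4 and 0.37 for Cdk6.

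With Dnmt1 depleted, 4OHT gave 1 of 9 members past the test (13.7% of all genes passed, 4.59% as lower and 5.64% with 2-fold). Cdkn2b fell from 55.5 and 52.7 FPKM to 41.5 and 32.8 FPKM, groups that did not overlap (log2 fold change -0.55 ± 0.14, limma adjusted p = 0.0497). This call sat at the threshold and was lost when any 1 library was left out (-0.72 to -0.38). Fitted on these 4 libraries alone it was also lost (adjusted p = 0.056), and Ccnd3 (0.57), Cdk4 (-0.31) and Cdkn2c (-0.67) passed instead. For that fit the share of all genes passing was not counted. Markers of other cells moved in the same comparison: the muscle gene Myod1 rose from 0.0718 and 0.256 FPKM to 2.30 and 3.98 FPKM (log2 fold change 3.66, limma adjusted p = 0.027), 1 of 4 such markers tested, and the 9 on the list summed to 6.61 to 6.77 FPKM without and 14.2 to 16.1 FPKM with 4OHT. Of 9 fibroblast markers 5 fell and none rose, led by Pdgfra (-1.94), Col1a1 (-1.49) and Col1a2 (-1.26). In 4OHT + siCtrl against siCtrl 6 of the 9 fell and none rose, led by Pdgfra (-3.18), Col1a1 (-1.63) and Col1a2 (-1.56), and in siDnmt1 against siCtrl 3 fell and 1 rose. The part of these markers in the members' values was not tested. Median-ratio scaling moves all genes of this comparison by 0.16 on the log2 scale, and the Cdkn2b value was then -0.71. No member passed in 4OHT + siDnmt1 against 4OHT + siCtrl (2.04% of all genes; 3 members at an unadjusted limma p under 0.05), nor in the interaction of 4OHT and siDnmt1 (0.197% of all genes; 2 at an unadjusted p under 0.05). Without 4OHT + siCtrl replicate 1, the former gave -1.16 for Cdkn2c, -0.80 for Ccnd3, -0.60 for Cdk4 and -0.51 for Ccnd1. The 4OHT + siCtrl side of these values rests on replicate 2 alone, the library that stood apart. For Cdkn2c the interaction was 0.81 ± 0.33 (limma adjusted p = 0.497), so the joint treatment lowered it by less on the log2 scale than the sum of the single treatments, a difference that did not pass; without the library that stood apart it was 1.18 (adjusted p = 0.063), and no member then passed in 4OHT + siDnmt1 against 4OHT + siCtrl. Of the G1/S list, 3 of 24 tested were lower and none higher in siDnmt1 against siCtrl (Cdkn1a -1.22, Tfdp2 -0.83, Rbl2 -0.77), with a list median of -0.17 beside -0.090 over all genes.

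The inhibitor experiment repeated the deletion at day 6 and set it beside TSA and the MEK inhibitor. At day 6 of 4OHT, 4 of 9 members passed against untreated cells, all lower (24.9% of all genes passed, 12.7% as lower), and they were Ccnd3 and the Ink4 genes Cdkn2a, Cdkn2b and Cdkn2c. Cdkn2c was at 52.2 and 48.3 FPKM in untreated and 27.8 and 16.3 FPKM in 4OHT libraries (log2 fold change -1.23 ± 0.27, limma adjusted p = 0.015), and it was the only member past 2-fold (11.1% of all genes). Cdkn2b went from 51.8 and 59.3 to 37.6 and 30.8 FPKM (-0.70 ± 0.15, limma adjusted p = 0.014). Neither pair of groups overlapped. Cdkn2a, the most abundant member, went from 959.9 and 1058 to 645 and 433 FPKM (-0.93 ± 0.26, limma adjusted p = 0.036), and Ccnd3 from 63.7 and 68.1 to 48.1 and 53.7 FPKM (-0.37 ± 0.11, limma adjusted p = 0.049).

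None of these 4 passed without untreated replicate 1, without untreated replicate 2 or without 4OHT replicate 2, and without 4OHT replicate 1 the count was 3. Leaving out untreated replicate 1, untreated replicate 2 and 4OHT replicate 2 in turn gave -1.18, -1.29 and -0.85 for Cdkn2c and -0.80, -0.60 and -0.56 for Cdkn2b, and values down to -0.64 for Cdkn2a without 4OHT replicate 2. Ccnd3 lost its call in every case (-0.45 to -0.29). The interferon genes summed to 843 FPKM in 4OHT replicate 1 and 1795 FPKM in replicate 2, against 22.9 to 23.7 FPKM in untreated libraries, and their part in the members' spread was not tested. Of 8 fibroblast markers tested 5 fell at day 6 and none rose, among them Col3a1 (-3.76), Col1a2 (-1.13) and Col1a1 (-1.09), and the part of these was not tested either.

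Cyclin D1 was at 36.3 and 37.2 FPKM in untreated and 84.2 and 61.5 FPKM in 4OHT libraries, higher in both but without passing (log2 fold change 0.97 ± 0.34, limma adjusted p = 0.075). Cdk6 was at 17.4 and 18.1 FPKM in untreated and 9.23 and 11.3 FPKM in 4OHT libraries and just missed the threshold (-0.79 ± 0.24, limma adjusted p = 0.051), passing with a pseudocount of 1 (-0.74, adjusted p = 0.047) or a filter of 5 FPKM. Fitted on these 4 libraries alone, Ccnd1, Cdk6, Cdkn1b and Cdkn2b passed and Ccnd3, Cdkn2a and Cdkn2c did not. The share of all genes passing in that fit was not counted. Of 26 genes of the G1/S list tested, 1 was higher and 3 lower, among them Cdkn1a (1.26), Rb1 (-0.93) and Rbl2 (-0.75).

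**Figure D3:**
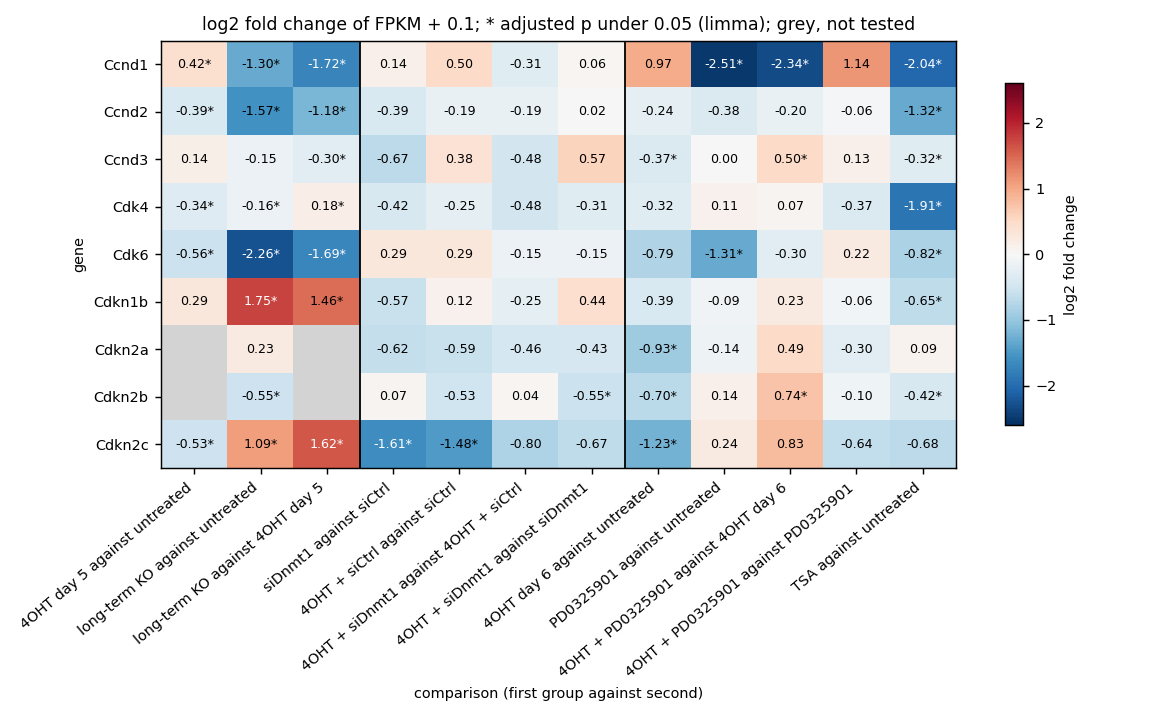
Fitted log2 fold changes of FPKM + 0.1 for the 9 genes (rows) in the 12 comparisons (columns: total RNA, siRNA and inhibitor experiments, divided by black lines), with red higher and blue lower in the group named first. A star marks an adjusted p under 0.05 in limma, and grey cells were not tested. The Cdkn2c row is blue in each early 4OHT comparison and red in the long term; the Ccnd1 row is darkest blue under PD0325901 and TSA.

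PD0325901 blocks MEK, the kinase that activates ERK. In its comparison with untreated cells, 2 of 9 members passed, both lower and by 2-fold (13.7% of all genes passed, 7.8% as lower and 7.23% with 2-fold). Cyclin D1 fell from 36.3 and 37.2 to 9.35 and 4.33 FPKM, 5.37-fold by the group means (log2 fold change -2.51 ± 0.34, limma adjusted p = 0.0041), and the call held without each library in turn (-3.05 to -1.96) but not in a fit of these 4 libraries alone (adjusted p = 0.056). Cdk6 fell from 17.4 and 18.1 to 7.63 and 6.62 FPKM (-1.31 ± 0.24, limma adjusted p = 0.014). The Cdk6 call was lost without untreated replicate 1 (-1.33), untreated replicate 2 (-1.28) or PD0325901 replicate 2 (-1.21). Cyclin D3 was at 66.1 and 65.7 FPKM under PD0325901, inside the untreated range of 63.7 to 68.1 FPKM (log2 fold change 0.00082 ± 0.11). Cyclin D2 was at 42.8 and 28.5 FPKM, below the untreated libraries, and did not pass (-0.38 ± 0.18, limma adjusted p = 0.205). Without PD0325901 replicate 1 it did (-0.67, adjusted p = 0.028). In the ERK target list 7 of 8 genes fell (median -3.85), with Etv4 at -6.46, Spry4 at -5.42 and Etv5 at -4.85. Among the fibroblast markers 3 rose and 2 fell under PD0325901, led by Col1a1 (1.36), Col1a2 (1.25) and Fn1 (0.67), and their part in the members' values was not tested. In the G1/S list Cdkn1a rose (1.29) and E2f4 and E2f2 fell (-1.09 and -1.51), of 26 tested.

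In cells at day 6 of 4OHT, adding PD0325901 gave 3 of 9 members past the test (6.98% of all genes passed, 4.32% as higher, 2.66% as lower and 3.79% with 2-fold). Cyclin D1 fell from 84.2 and 61.5 to 14.8 and 13.6 FPKM (log2 fold change -2.34 ± 0.34, limma adjusted p = 0.0088), a call lost without 4OHT replicate 1 (-2.11, adjusted p = 0.052). Cdkn2b rose from 37.6 and 30.8 to 64.0 and 50.3 FPKM (0.74 ± 0.15, limma adjusted p = 0.030) and Ccnd3 from 48.1 and 53.7 to 70.3 and 74.2 FPKM (0.50 ± 0.11, limma adjusted p = 0.041). The Cdkn2b call was lost without 4OHT + PD0325901 replicate 1 (0.56) or 4OHT replicate 2 (0.59) and after median-ratio scaling (0.68), and the Ccnd3 call when any 1 library was left out (0.43 to 0.58). Fitted on these 4 libraries alone, no member passed, and the share of all genes passing was not counted.

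The test of whether 4OHT changed the response to PD0325901 called no member (0.726% of all genes; 3 members at an unadjusted limma p under 0.05). For Ccnd1 the interaction was 0.17 ± 0.48 (SE, limma adjusted p = 0.91), and its sign turned without PD0325901 replicate 2 (-0.37) or without 4OHT replicate 2 (-0.05). Under PD0325901 the addition of 4OHT left cyclin D1 at 14.8 and 13.6 FPKM against 9.35 and 4.33 FPKM, higher in both libraries without passing (1.14 ± 0.34, limma adjusted p = 0.084). That comparison called no member (8.1% of all genes; 2 members at an unadjusted p under 0.05), and Ccnd1 passed in it without PD0325901 replicate 1 (1.69, adjusted p = 0.017). Median-ratio scaling moves all genes of this comparison by 0.11 on the log2 scale, and Ccnd1 was then at 1.03.

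TSA, which blocks histone deacetylases, gave 7 of 9 members past the test, all lower (55.9% of all genes passed, 24.4% as lower). Cyclin D1 fell from 36.3 and 37.2 to 10.5 and 7.49 FPKM (log2 fold change -2.04 ± 0.34, limma adjusted p = 0.0015), Cdk4 from 536 and 539 to 173 and 119 FPKM (-1.91 ± 0.23, limma adjusted p = 0.00035) and Ccnd2 from 46.2 and 44.8 to 17.7 and 18.7 FPKM (-1.32 ± 0.18, limma adjusted p = 0.00057). These 3 were past 2-fold (32.1% of all genes), and their calls held without each library in turn. The other calls were smaller: Cdk6 (-0.82), Cdkn1b (-0.65), Cdkn2b (-0.42) and Ccnd3 (-0.32). Cdkn1b and Cdkn2b lost theirs when any 1 library was left out (-0.68 to -0.62 and -0.52 to -0.32). Cdk6 lost its call without untreated replicate 1 (-0.84), untreated replicate 2 (-0.79) or TSA replicate 2 (-0.51), and Ccnd3 without untreated replicate 1 (-0.37), untreated replicate 2 (-0.28) or TSA replicate 1 (-0.18).

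Cdkn2a was at 1176 and 979.6 FPKM under TSA, overlapping the untreated libraries (0.09 ± 0.26, limma adjusted p = 0.79), and Cdkn2c at 32.7 and 30.0 FPKM, below them without passing (-0.68 ± 0.27, limma adjusted p = 0.063), though it passed in a fit of these 4 libraries alone (adjusted p = 0.00355). In the G1/S list 7 of 26 were higher and 9 lower, with Rb1 at 1.77, Cdkn1a at 1.54 and Tfdp1 at -1.92. Of 18 E2F targets tested, 11 fell and 1 rose (median -0.71 beside 0.098 over all genes), led by Uhrf1 (-1.01), Cdt1 (-1.32) and Rrm1 (-2.01). Markers of other cells moved with TSA: the epithelial gene Epcam went from 0.839 and 1.09 to 28.1 and 29.2 FPKM and the macrophage gene Cd68 from 4.90 and 4.27 to 66.9 and 60.5 FPKM, and the 9 markers of other cells summed to 6.81 and 6.82 FPKM in untreated and 92.01 to 96.7 FPKM in TSA libraries. Of the 3 tested, 2 were higher. Of 8 fibroblast markers 4 fell and 3 rose, led by Col1a1 (-1.56), Col1a2 (-1.50) and the surface marker gene Thy1 (1.40), and Col3a1 also fell (-3.57). Their part in the members' values was not tested.

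The share of cyclin D1 in the summed FPKM of the 3 D-type cyclins puts these results on 1 scale within each library. In total RNA it was 35.2% ± 0.92 (SD, n = 3) in untreated, 44.1% ± 0.45 at day 5 and 26.9% ± 0.37 in long-term KO cells, where cyclin D3 made up 50.8% and the sum was 52.9 FPKM against 100.3 FPKM in untreated cells. In the siRNA experiment it was 34.1 and 35.0% with siCtrl, 45.5 and 45.8% with siDnmt1, 40.3 and 40.7% with 4OHT + siCtrl and 40.6 and 42.3% with 4OHT + siDnmt1. In the inhibitor experiment it was 24.8% in both untreated libraries, 50.02 and 39.3% at day 6 of 4OHT, 7.90 and 4.40% with PD0325901, 12.6 and 11.1% with 4OHT + PD0325901 and 13.8 and 8.89% with TSA. By group means cyclin D1 held the largest share in all 4 groups of the siRNA experiment, at day 5 and in 4OHT day 6, and also in untreated total RNA, where it was within the spread of cyclin D2 (35.2% ± 0.92 against 35.0% ± 0.49). Cyclin D3 held it in long-term KO cells and in the untreated, TSA, PD0325901 and 4OHT + PD0325901 groups of the inhibitor experiment. The cyclin D1 lead in siCtrl was absent from siCtrl replicate 2, where cyclin D3 was at 35.3% and cyclin D1 at 34.1%. Only the pair 4OHT + siDnmt1 and 4OHT + siCtrl overlapped among the 12 comparisons. An exact permutation test, two-sided, cannot go below p = 0.1 with 3 against 3 libraries or 0.33 with 2 against 2, so no difference in share could pass at this size.

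**Figure D4:**
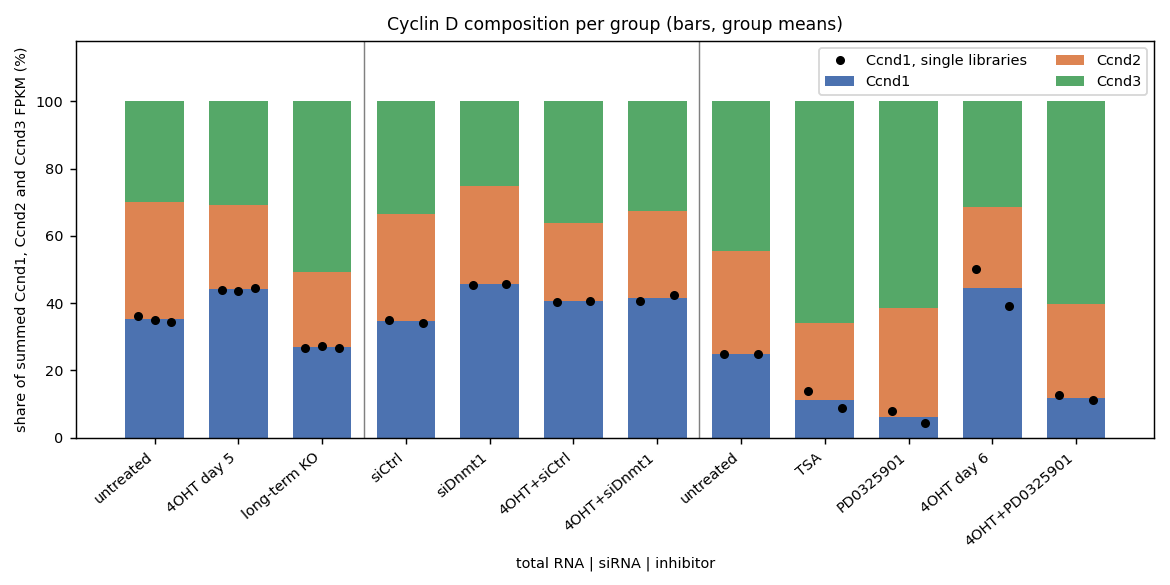
Share of the summed Ccnd1, Ccnd2 and Ccnd3 FPKM held by each gene (percent, stacked bars of group means adding to 100) in the 12 groups, with points for the Ccnd1 share in each library. The Ccnd1 share lies between 39.3% and 50.02% in the early 4OHT groups without an inhibitor and between 4.40% and 13.8% with PD0325901 or TSA.

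Across the experiments the early 4OHT comparisons can be read side by side, each against its own controls. Cdkn2c was lower at day 5 (-0.53), at day 6 with siCtrl (-1.48) and at day 6 alone (-1.23), past the test each time. Its day 5 call held without each library in turn. Both of its day 6 calls were lost in some leave-outs and when only their own groups were fitted. Ccnd1 was higher each time (0.42, 0.50 and 0.97), past the test at day 5 only. Without 4OHT + siCtrl replicate 2 the values with siCtrl were -1.84 for Cdkn2c and 0.30 for Ccnd1. Cdk6 was at 27.4 to 42.0 FPKM in untreated total RNA, 17.4 to 18.1 FPKM in untreated inhibitor and 8.03 to 8.44 FPKM in siCtrl libraries. Ribosomal RNA was removed in the total RNA experiment only. Per the paper, total RNA reads were paired-end, and siRNA libraries were mRNA with single reads. These levels are therefore not read as a difference between experiments. Over the 12 group means, centred within experiment and among 8457 genes, the genes most like Ccnd1 were Abcb1b (Pearson r = 0.93), Xpo1 (0.92) and Rpl28 (0.92), and those most like Cdkn2b were Fosl2 (0.93), Adgrg6 (0.92) and Htra1 (0.90). These correlations share libraries and controls and describe the pattern alone.

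The authors' own Cufflinks interval around a member's FPKM had a median half-width of 5.01% of the value in total RNA, 5.83% in the siRNA and 7.07% in the inhibitor experiment. It reached 0 for 3 values: Ccnd2 in 4OHT day 6 replicate 1 (36.0 FPKM), Cdk6 in 4OHT + siDnmt1 replicate 1 (8.50 FPKM) and Cdkn2a in 4OHT + siCtrl replicate 2 (686 FPKM). No comparison that includes those libraries called Ccnd2 or Cdk6, and Cdkn2a passed in 4OHT + siCtrl against siCtrl only without the last of them.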

How the data were processed

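RNA-seq was measured in 27 libraries of 12 groups in 3 experiments. The deposited values are FPKM per gene: the authors mapped reads to mm9 with TopHat2 2.0.12 and estimated FPKM with Cufflinks and a RefSeq annotation, per library. A multi-hit read was reported once, so reads of near-identical genes may be misplaced. The authors' comparison tables (fold changes and p-values) were not used. Total RNA files name no gene, so a gene was taken from the row covering at least 95% of its locus; others were matched by name.

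Genes at 1 FPKM or more in at least 3 libraries (total RNA) or 2 libraries (other experiments) were tested on log2(FPKM + 0.1) with limma 3.58.1 (R 4.3.3; trended variance, all groups of the experiment, two-sided, Benjamini-Hochberg over all genes tested), which understates changes of low genes. Passing means adjusted p under 0.05. The fit was tested on simulated data. Depth assumed a fragment length of 200 bases. Alternatives were pseudocounts, filters, scalings, variance priors, the libraries fitted, a replicate block and leaving out each library.

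The 9 genes, the gene lists and the tests were chosen with earlier results of these data known. Named genes were all 9, up to 3 per list and comparison with the lowest adjusted p, and the 3 most like Ccnd1 and Cdkn2b. Other genes named were chosen after their values were seen.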

Additional observations from a re-analysis of the deposited data

Results flagged for a closer look

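Long-term KO cells differed from 4OHT day 5 cells for 7 members in limma across all genes (66.4% of all genes passed). The labels do not match the untreated group to the long-term cells in culture time, and every 4OHT library carried the conditional allele. Effects of deletion, 4OHT and time in culture therefore cannot be told apart here. The log2 difference, long-term less day 5, was -1.72 for Ccnd1, -1.18 for Ccnd2, -0.30 for Ccnd3, 0.18 for Cdk4, -1.69 for Cdk6, 1.46 for Cdkn1b and 1.62 for Cdkn2c. Every long-term library lay on the same side of every day 5 library for each of these 7 members. How many of all genes were separated in this way was not counted. Ccnd1 and Cdkn2c moved in opposite directions from the untreated level at these times.

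The early effect of 4OHT pointed in opposite directions in different experiments for 2 members, with no overlap between a treated group and its own controls. The log2 ratio of group means for Cdk6 was -0.59 at day 5 in total RNA and -0.79 at day 6 in the inhibitor experiment, but 0.29 at day 6 in the siRNA experiment. The siRNA comparison includes the library that stood apart, 4OHT + siCtrl replicate 2, and the fitted Cdk6 value without it was 0.37. For Cdkn1b it was 0.30 at day 5 in total RNA and -0.39 at day 6 in the inhibitor experiment. These differences between experiments were not tested. Groups of 2 or 3 libraries were too small for a test of single libraries.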

How the results depend on the processing

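Of 39 calls, 19 of 20 in total RNA, 0 of 3 in the siRNA and 4 of 16 in the inhibitor experiment were kept whichever 1 library was left out. Where that left 1 library in a group, its spread was taken from the other groups. The number of members past the test then ranged from 0 to 0 for siDnmt1 against siCtrl and for 4OHT + siDnmt1 against siDnmt1, from 0 to 4 for 4OHT + siCtrl against siCtrl and for 4OHT + siDnmt1 against 4OHT + siCtrl, from 0 to 3 for 4OHT day 6, from 1 to 3 for PD0325901, from 1 to 2 for 4OHT + PD0325901 against 4OHT day 6, from 0 to 1 for 4OHT + PD0325901 against PD0325901 and from 3 to 4 for TSA. The Ccnd1 interaction of 4OHT and PD0325901 (0.17) ranged from -0.37 to 0.72, with -0.05 without 4OHT day 6 replicate 2.

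With a 2-fold minimum the count became 0 at day 5, 0 for 4OHT + siDnmt1 against siDnmt1, 1 for 4OHT day 6, 1 for 4OHT + PD0325901 against 4OHT day 6 and 3 for TSA. Fitting only the groups compared gave 7 for siDnmt1, 0 for 4OHT + siCtrl, 3 for 4OHT + siDnmt1 against siDnmt1, 1 for PD0325901 and 0 for 4OHT + PD0325901 against 4OHT day 6. The share of all genes passing was not counted in these fits. Without a filter the count was 2 for 4OHT day 6 and 0 for 4OHT + siDnmt1 against siDnmt1, where a pseudocount of 0.01 and a constant variance prior also gave 0. Median-ratio scaling gave 2 for 4OHT + siCtrl.

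The replicate numbers were not taken to pair the samples: correlations of same-numbered deviations were over 0.1 in 1 of 9 cases in total RNA, 0 of 12 in the siRNA and 6 of 20 in the inhibitor experiment. Those 6 were all from PD0325901, 4OHT day 6 and 4OHT + PD0325901 (0.21 to 0.25), whereas untreated and 4OHT day 6 were at 0.036. With a replicate block the count became 0 for 4OHT + siDnmt1 against siDnmt1, where Cdkn2b was lost (adjusted p = 0.080), and 1 for 4OHT + PD0325901 against PD0325901, where Ccnd1 was gained (1.14, adjusted p = 0.040). The block also gained Ccnd1 at 4OHT day 6 (0.97, adjusted p = 0.032) and Cdkn2c under TSA (-0.68, adjusted p = 0.030), lost Ccnd3 in long-term KO cells against day 5 (-0.30, adjusted p = 0.0504) and changed no other member's call. Calls over all genes changed by a ratio of 0.394 to 1.22. Libraries of 2 a group limit what could be detected, and the causes were not tested.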
